A study of Homo sapiens with 6 samples.

Results

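The 56 protein-coding genes described here belong to the gene families of cyclic AMP (cAMP) signalling, including phosphodiesterases that act on cyclic GMP (cGMP), out of 58721 genes in the count table of an RNA sequencing study of A375 cells, an established human melanoma line with a mutant BRAF gene. They were taken by symbol, from the GENCODE release 29 annotation, and comprise 10 adenylyl cyclases (ADCY), 25 entries for cyclic nucleotide phosphodiesterases (PDE, with PDE11A annotated as a pair of overlapping entries), 7 subunits of protein kinase A (PRKAC, PRKAR) and 14 A-kinase anchoring proteins (AKAP). Of the 6 libraries, 3 came from cells with a guide RNA against mCherry, a fluorescent protein gene foreign to human cells (control, genotype WT in the labels), and 3 from cells with a guide RNA against SOX10, a neural crest and melanocyte transcription factor (knockout). All were grown in DMEM with 10% FBS and received no labelled treatment. The labels do not say whether the knockout cells were 1 clone or a pool, or where the guide cuts.

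Adenylyl cyclases, switched on by stimulatory G proteins downstream of many receptors and held back by inhibitory ones, turn ATP into cAMP. The cAMP binds the regulatory subunits of protein kinase A (PKA) and frees its catalytic subunits; AKAPs hold PKA, and often a phosphodiesterase, at fixed places in the cell, and phosphodiesterases end the signal by hydrolysing cAMP, cGMP or both. In melanocytes the hormone receptor MC1R acts through cAMP and CREB on MITF, which drives pigmentation.

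Library totals ran from 70075002 to 78148565 counts, so that 3 counts, taken as the floor, equalled 0.0384 to 0.0428 CPM (counts scaled to a common library size, with TMM factors in what follows). Floors cover counting error only. SOX10 itself averaged 233.7 ± 9.36 CPM in control libraries and 45.5 ± 3.48 CPM in libraries of the knockout (mean ± SD, n = 3 per group here and below), 5.14-fold lower (edgeR adjusted p = 1.84e-07). In bulk RNA, fewer cells of a kind and less RNA per cell cannot be told apart. The melanoma label was checked against 8 lineage markers: 5 reached 1 CPM in some library, but of the pigment genes PMEL and MLANA had group means of at most 0.623 and 0.874 CPM and TYR had 1 read in all. Of the other pigment genes, DCT fell from 1.62 ± 0.175 to 0.0657 ± 0.0258 CPM. The scarce TYRP1 rose from 0.0731 ± 0.0197 to 0.230 ± 0.0779 CPM. The summed level of the 8, SOX10 among them, was 318.7 to 332.7 CPM in the control group and 180.0 to 191.1 CPM in the knockout group. Without SOX10 the sum of the other 7 turned, from 91.95 to 95.6 CPM in the control group and 138.5 to 143.3 CPM in the knockout group: MITF was 2.41-fold higher, whereas S100B fell from 32.9 ± 4.34 to 1.28 ± 0.134 CPM. Summed levels of other cell types' markers, control then knockout, were 16.4 to 19.4 and 23.9 to 26.1 CPM for 8 fibroblast markers (5 reaching 1 CPM), 167.2 to 173.6 and 230.8 to 243.3 CPM for 6 epithelial markers (2 reaching it, with KRT18 the most abundant), 6.84 to 8.88 and 3.46 to 4.50 CPM for 6 endothelial markers (3; 1.40 to 1.62 and 3.43 to 4.26 CPM without KDR, the highest in control), and 10.8 to 14.3 and 1.52 to 2.28 CPM for 6 leukocyte markers (1, LYZ). Much of the fibroblast rise lay in LUM, the most abundant of the 8 (7.84 ± 1.98 and 14.1 ± 1.88 CPM). PDGFRA was lower in all knockout libraries (1.54 ± 0.174 and 0.939 ± 0.237 CPM). The part of these cell types' markers in the results below was not tested. The labels do not say that replicates were separate cultures, and the spread behind each p-value may therefore be technical.

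The largest changes after SOX10 was targeted were among the phosphodiesterases, which went both ways. PDE3A fell 12.2-fold, PDE5A rose 11.7-fold, AKAP6 rose 6.18-fold and the PKA regulatory subunit PRKAR2B fell 2.26-fold. Of the 56 genes, 42 passed the filter on low counts and were tested, and 21 of these passed an adjusted p of 0.05 (50.0%), 10 higher and 11 lower, beside 28.0% of all 19263 tested genes (14.0% higher and 14.0% lower). A 2-fold or larger change among the called was seen for 12 of 42 (28.6%), beside 10.8% of all tested genes. All knockout libraries lay on 1 side of all control libraries for 26 of 42, beside 41.6% of all tested genes. The median log2 fold change, knockout against control, was -0.08 for the 42 and -0.02 for all tested genes, and the median of its absolute size 0.31 and 0.21. Of the tested genes, PDE1A, PDE11A, PDE6A and PDE6G did not reach the filter in all libraries of both groups, so that a difference was built into their being tested; among the other 38, 17 passed (44.7%), 7 higher and 10 lower, 8 of them by 2-fold or more (21.1%), and 22 had groups that lay apart. Over all 17027 genes that reached the filter in every library, 27.4% passed and 7.95% did so by 2-fold or more. Groups lay apart for 7014 of these 17027. By class, 13 of 20 phosphodiesterases passed (9 of 16 without those 4), 4 of 6 PKA subunits, 2 of 5 cyclases and 2 of 11 AKAPs; differences between classes were not tested. The 14 untested entries, with 0.129 CPM as their highest group mean (ADCY10 in control), were ADCY2, ADCY4, ADCY5, ADCY8, ADCY10, PDE1B, PDE4C, PDE6C, PDE6H, the shorter PDE11A entry, AKAP3, AKAP4, AKAP14 and PRKACG. Of these, 5 had 0 counts in every library, which allows up to the floor of 3 counts per library. For the shorter PDE11A entry, among the 5, this covers only reads not shared with the longer entry, which it overlaps on the same strand.

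**Figure D1:**
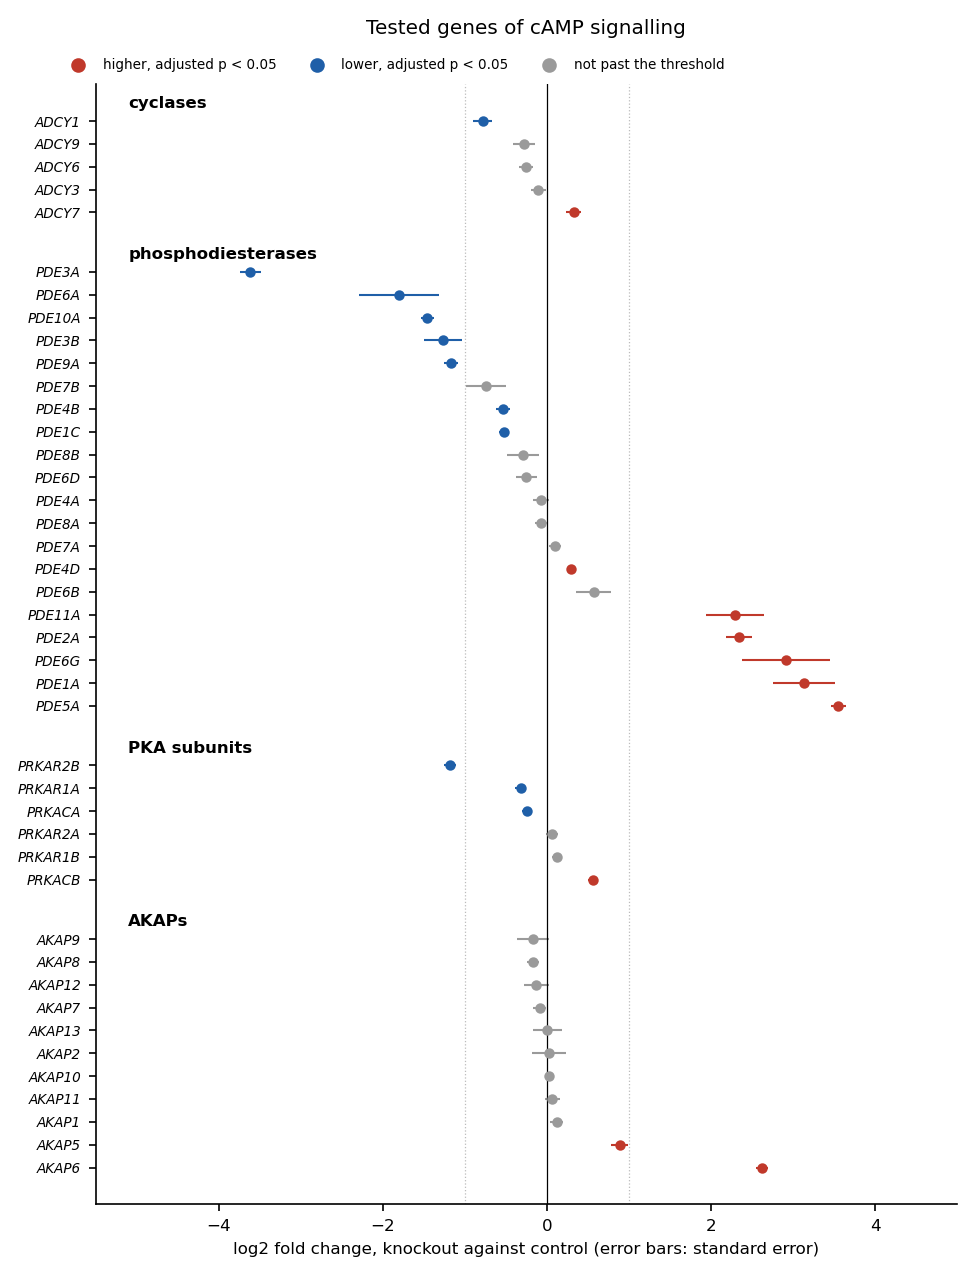
Log2 fold change of knockout against control, with its standard error, for the 42 tested genes by class (red higher, blue lower, grey not past an adjusted p of 0.05; dotted lines mark a 2-fold change). The phosphodiesterases reach from -3.61 (PDE3A) to 3.55 (PDE5A), and 9 of 11 AKAPs are grey.

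Promoters of 4 genes on which the results turn are shown, as the only regulatory sequence at hand: PDE5A and AKAP6, which rose, and PRKAR2B and PDE1C, which fell. Each runs from 250 bases before to 50 after the start in RefSeq (GRCh38.p14), which lay 187, 25, 56 and 1 bases from the outermost GENCODE start of PDE5A, AKAP6, PRKAR2B and PDE1C. The RefSeq window of PDE3A lay 202834 bases inside its GENCODE gene and is not shown. Capitals mark matches, on either strand, to SOX core letters (ACAAAG or ACAATG), the cAMP response element TGACGTCA or the E-box CACGTG, which MITF can bind; no matches overlapped in these windows.
PDE5A (chr4:119628755-119629054, minus strand): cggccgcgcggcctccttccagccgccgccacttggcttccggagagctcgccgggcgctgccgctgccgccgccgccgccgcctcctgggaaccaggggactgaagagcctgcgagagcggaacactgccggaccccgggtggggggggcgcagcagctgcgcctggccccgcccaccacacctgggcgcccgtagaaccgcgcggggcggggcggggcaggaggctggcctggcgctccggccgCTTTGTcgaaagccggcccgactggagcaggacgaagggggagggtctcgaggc
AKAP6 (chr14:32329048-32329347, plus strand): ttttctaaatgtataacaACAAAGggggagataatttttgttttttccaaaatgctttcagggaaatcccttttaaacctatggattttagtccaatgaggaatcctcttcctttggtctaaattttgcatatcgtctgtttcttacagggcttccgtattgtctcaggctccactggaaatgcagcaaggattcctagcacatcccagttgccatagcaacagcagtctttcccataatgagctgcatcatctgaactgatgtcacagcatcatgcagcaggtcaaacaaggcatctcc
PRKAR2B (chr7:107044455-107044754, plus strand): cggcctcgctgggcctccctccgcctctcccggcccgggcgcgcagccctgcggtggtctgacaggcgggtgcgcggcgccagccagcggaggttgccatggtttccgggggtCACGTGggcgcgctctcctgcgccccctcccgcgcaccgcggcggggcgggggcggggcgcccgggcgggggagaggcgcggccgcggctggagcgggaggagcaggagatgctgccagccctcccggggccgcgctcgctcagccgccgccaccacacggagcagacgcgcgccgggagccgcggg
PDE1C (chr7:32299279-32299578, minus strand): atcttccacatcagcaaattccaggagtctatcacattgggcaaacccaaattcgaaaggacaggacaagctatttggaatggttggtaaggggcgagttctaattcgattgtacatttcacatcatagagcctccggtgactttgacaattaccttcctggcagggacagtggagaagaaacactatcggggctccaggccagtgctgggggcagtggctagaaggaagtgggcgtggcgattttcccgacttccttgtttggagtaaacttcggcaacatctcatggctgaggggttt
PDE5A holds a SOX core match beginning 4 bases before its start (read on the opposite strand) and AKAP6 one 232 bases before it, PRKAR2B an E-box 137 bases before it, and PDE1C none of them. Windows not shown of PDE2A, PRKACB and AKAP5, which also rose, held no match. SOX core letters also occurred in the windows of PDE4D, which rose, and PDE4B, which fell. The windows of PDE3A and PDE10A, which fell, held no match. That of PDE10A, like that of PDE3A, lay far inside its GENCODE gene, by 324837 bases, so neither covers the outermost start. The window of PRKAR1A, which fell, held an E-box 45 bases before its start. SOX core letters occurred in 7 of the 45 promoters found for these genes (15.6%) and in 24.6% of 27305 promoters in the table. For the cAMP response element it was 2 of 45 (4.44%, PDE4A and PDE7B) and 1.98%, and for the E-box 6 of 45 (13.3%) and 7.43%. A match of letters does not show a bound site.

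The largest increase among the tested members was in 1 cGMP-specific phosphodiesterase, PDE5A. PDE5A (ENSG00000138735; GRCh38 chromosome 4, 119494395 to 119628991, minus strand), the cGMP-degrading enzyme that sildenafil inhibits, read 4.78, 5.37 and 4.40 CPM in control replicates 1, 2 and 3, against 59.7, 56.5 and 54.4 CPM in the knockout ones. The groups lay far apart. The log2 fold change was 3.55 (SE 0.09; by edgeR, adjusted p = 7.01e-08). In melanoma cells low PDE5A has been tied to mutant BRAF acting through the transcription factor POU3F2 (BRN2). POU3F2, named here after its values were seen, fell from 47.8 ± 5.31 to 6.64 ± 0.734 CPM; a link between these changes was not tested. PDE9A, a cGMP-specific enzyme of high affinity, went the other way, from 8.88, 8.63 and 8.97 CPM to 3.92, 3.63 and 4.25 CPM, with no overlap (log2 fold change -1.17, SE 0.09; by edgeR, adjusted p = 2.12e-05). The photoreceptor enzymes were scarce: PDE6B stood at 0.696 ± 0.133 and 1.03 ± 0.157 CPM (adjusted p = 0.0836), and PDE6A fell from 0.432 ± 0.264 to 0.123 ± 0.0139 CPM (adjusted p = 0.0236). Control replicate 3, at 0.735 CPM, was the highest for PDE6A, and the adjusted p was 0.0525, 0.0853 and 0.0716 without control replicate 3, knockout replicate 2 or knockout replicate 3. Of the non-catalytic PDE6 subunits, the inhibitory PDE6G rose from 0.0455 ± 0.0337 to 0.356 ± 0.119 CPM, 10 reads against 82, and the prenyl-binding chaperone PDE6D, the next most abundant per length after PDE1C in control, was at 16.2, 21.4 and 23.8 CPM and at 15.96, 17.4 and 18.3 CPM. The PDE6D groups overlapped, with control replicate 1 as low as the knockout libraries (adjusted p = 0.217; 0.0181 without control replicate 1).

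Of the 9 entries for enzymes that hydrolyse both nucleotides, 5 reached the filter in both groups, and of these 1 rose and 4 fell, beside 27.4% called of all such genes. PDE1A and PDE11A were tested only through their knockout level, and PDE1B (12 and 16 reads) and the shorter PDE11A entry were not tested. PDE3A (ENSG00000172572; chromosome 12, 20369245 to 20684381, plus strand), a cAMP-degrading enzyme that cGMP inhibits, dropped from 32.7, 32.2 and 27.3 CPM to 3.00, 2.23 and 2.31 CPM. The groups lay far apart, 12.2-fold between their means, and the log2 fold change was -3.61 (SE 0.13; by edgeR, adjusted p = 3.40e-07). Its relative PDE3B fell from 2.50, 2.25 and 1.82 CPM to 0.973, 1.15 and 0.612 CPM, also without overlap, 2.40-fold (adjusted p = 0.00414). PDE10A, best known from striatal neurons, fell from 25.3, 24.9 and 24.5 CPM to 9.93, 8.86 and 8.38 CPM, 2.75-fold (edgeR adjusted p = 2.77e-06). PDE1C, a calcium and calmodulin activated enzyme and per length the most abundant phosphodiesterase of these cells, was at 185.5, 182.9 and 179.0 CPM and then at 128.3, 130.1 and 121.7 CPM. It fell by a smaller factor, 1.44-fold (log2 fold change -0.53, SE 0.06; by edgeR, adjusted p = 1.72e-04). PDE2A, which cGMP stimulates, rose from 0.584, 0.580 and 0.679 CPM to 3.53, 3.01 and 2.84 CPM, 5.09-fold (edgeR adjusted p = 8.61e-06). PDE1A (0.101 ± 0.0360 to 0.896 ± 0.271 CPM) and PDE11A (0.0871 ± 0.00888 to 0.434 ± 0.113 CPM) also rose, from 22 and 19 control reads.

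**Figure D2:**
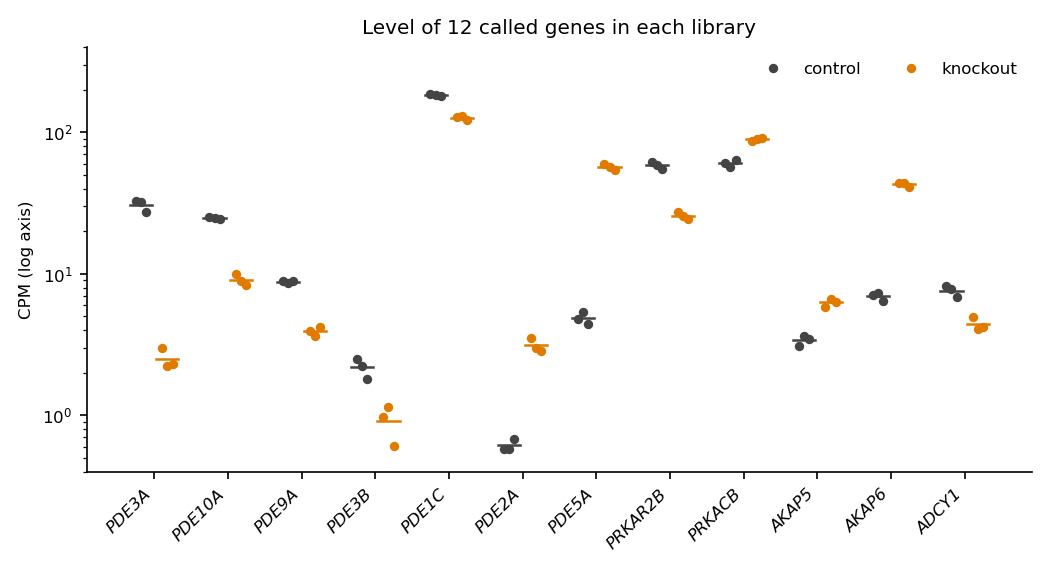
CPM on a log axis of 12 called genes in every library (points; bars are group means of n = 3). The groups of each gene are separate; PDE5A and AKAP6 stand higher in knockout libraries and PDE3A, PDE10A and PRKAR2B lower.

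Of 7 tested cAMP-specific enzymes, of the PDE4, PDE7 and PDE8 families, 1 rose, 1 fell and 5 did not pass. This share, 28.6%, was close to the 28.0% of all tested genes. PDE4D rose from 58.0 ± 1.54 to 71.5 ± 2.98 CPM, 1.23-fold (adjusted p = 0.00601), and PDE4B fell from 18.5 ± 1.85 to 12.8 ± 0.215 CPM, 1.45-fold (adjusted p = 0.00161); both are targets of rolipram and its kin. PDE8A, the most abundant of the 7 per length, read 51.2, 49.8 and 47.0 CPM in the control group against 50.7, 46.2 and 44.4 CPM, with overlap (log2 fold change -0.07, SE 0.07, adjusted p = 0.550). PDE4A was at 17.4 ± 1.86 and 16.5 ± 1.45 CPM, PDE7A at 23.8 ± 1.81 and 25.5 ± 0.821 CPM, and PDE8B at 2.32 ± 0.530 and 1.90 ± 0.317 CPM. PDE7B, at 1.23 ± 0.388 and 0.737 ± 0.0783 CPM without overlap, missed the threshold at an adjusted p of 0.0535 (log2 fold change -0.74). For PDE7B the adjusted p was 0.0460 with DESeq2, 0.0410 with no filter on low counts and 0.0269 without control replicate 3; without control replicate 1 it was 0.173 and the log2 fold change -0.45.

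To compare genes with each other, CPM was divided by the exonic length of each gene in kb (RPKM). Summed over the 22 catalytic phosphodiesterase entries, the level was 38.99 ± 1.38 RPKM in control and 35.5 ± 1.47 RPKM in knockout libraries, and the lowest control library (37.5 RPKM) lay just above the highest knockout one (37.0 RPKM). The cAMP-specific enzymes held 46.6% to 47.4% of this sum in control and 50.7% to 51.7% in knockout libraries, the dual enzymes 46.8% to 47.0% and 29.2% to 30.4%, and the cGMP-specific ones 5.79% to 6.43% and 18.9% to 19.4%. The make-up of the sum thus differed more than the sum itself, mainly through 3 genes. PDE1C held 33.9% ± 0.613 of the sum in control and 25.8% ± 0.729 in knockout libraries, PDE3A 9.36% ± 0.607 and 0.841% ± 0.112, and PDE5A 1.27% ± 0.108 and 16.4% ± 0.104. In knockout libraries the 5.82 ± 0.272 RPKM of PDE5A lay within the spread of PDE8A (5.97 ± 0.411 RPKM) and below PDE1C (9.17 ± 0.321 RPKM). These shares describe transcripts, and exonic lengths count all annotated exons, used or not.

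**Figure D3:**
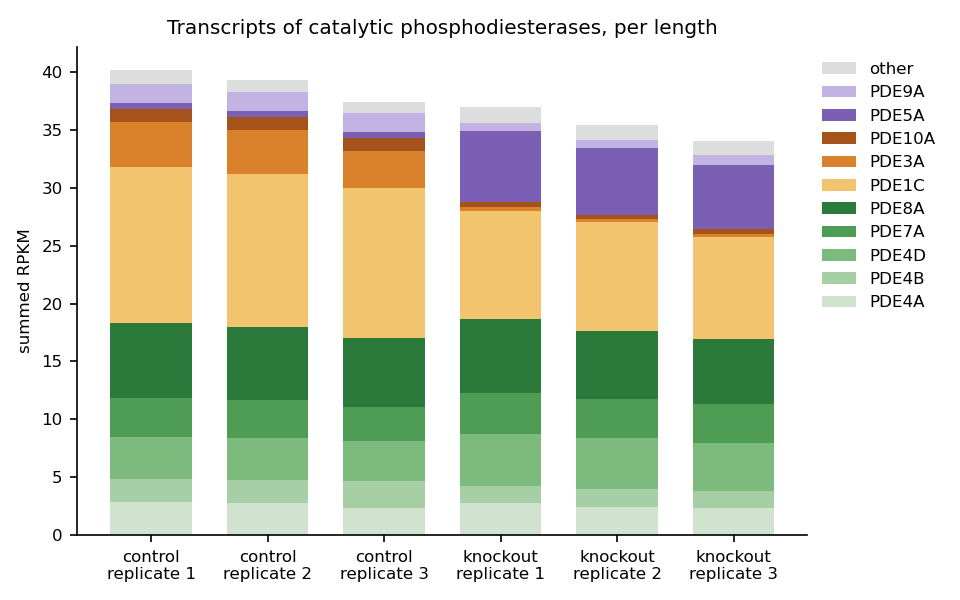
Stacked RPKM of catalytic phosphodiesterase genes in each library: greens are cAMP-specific, oranges dual and purples cGMP-specific, grey all others. The PDE5A segment widens and the PDE3A segment nearly vanishes in the 3 knockout libraries, while the summed height stays between 34.1 and 40.2 RPKM.

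Among PKA subunits, 1 rose, 3 fell and 2 did not pass, of 6 tested (66.7% called, beside 28.0% of all tested genes). PRKAR2B (ENSG00000005249; chromosome 7, 107044649 to 107161811, plus strand), the type II regulatory subunit common in brain and fat, went from 61.6, 58.4 and 54.8 CPM to 27.4, 25.6 and 24.3 CPM. The groups did not overlap, and the log2 fold change was -1.18 (SE 0.07; by edgeR, adjusted p = 6.14e-06). PRKAR1A, the most abundant subunit and the gene mutated in Carney complex, fell from 477.1, 446.2 and 430.2 CPM to 378.9, 360.5 and 346.4 CPM, 1.25-fold (adjusted p = 0.00696). PRKAR2A was at 241.6, 236.2 and 218.3 CPM and at 257.8, 241.0 and 227.2 CPM, overlapping (adjusted p = 0.590). PRKAR1B was at 26.1, 28.1 and 27.2 CPM and at 28.9, 30.8 and 29.0 CPM, apart but not called (adjusted p = 0.193).

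The catalytic subunits moved in opposite directions. PRKACB, at 60.7, 56.7 and 63.9 CPM and then 86.9, 90.2 and 90.4 CPM, rose 1.48-fold without overlap (log2 fold change 0.56, SE 0.06; by edgeR, adjusted p = 2.62e-04). PRKACA, at 104.5, 103.7 and 100.9 CPM and then 87.7, 91.4 and 81.9 CPM, fell 1.18-fold (adjusted p = 0.0188). That call was lost when libraries were scaled by total counts (adjusted p = 0.0575) and without control replicate 1, control replicate 2, knockout replicate 1 or knockout replicate 3 (0.0648, 0.0854, 0.0516 and 0.0645). The germline subunit PRKACG had 0 counts. Within each library, PRKACB made up 34.9% ± 1.68 of catalytic subunit transcripts per length in control and 48.4% ± 1.61 in knockout libraries, and PRKAR2B 11.2% ± 0.111 and 5.85% ± 0.0590 of regulatory ones. An exact two-sided permutation test over the 20 assignments gave p = 0.1 for either share, the smallest that 3 against 3 libraries allow. Summed regulatory transcripts were 120.6 ± 5.86 and 102.0 ± 5.02 RPKM, and summed catalytic ones 25.7 ± 0.396 and 27.4 ± 0.781 RPKM.

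**Figure D4:**
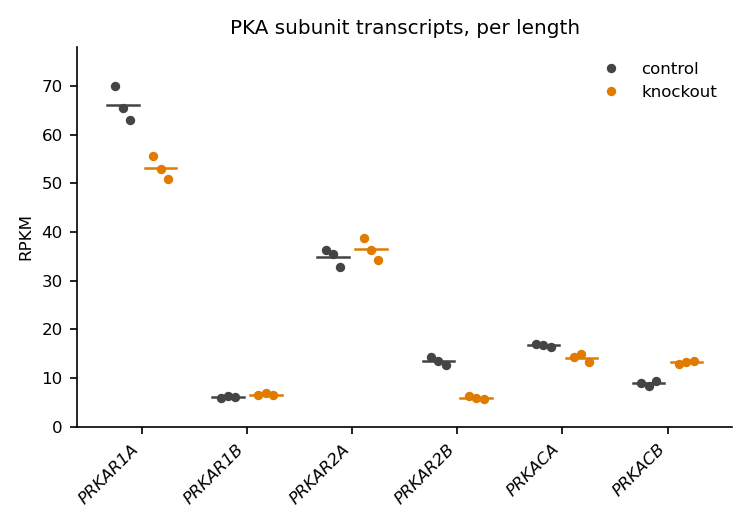
RPKM of the 6 detected PKA subunits in each library (points; bars are group means of n = 3). PRKAR1A and PRKAR2B are lower and PRKACB is higher in all knockout libraries, bringing PRKACB level with PRKACA.

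Of 11 tested AKAPs, 2 rose, none fell and 9 did not pass (18.2% called, beside 28.0% of all tested genes). Their median log2 fold change was 0.03. AKAP6 (ENSG00000151320; chromosome 14, 32329273 to 32837681, plus strand), which gathers PKA and PDE4D at the nuclear envelope of muscle cells and neurons, rose from 7.09, 7.31 and 6.43 CPM to 43.9, 43.5 and 41.2 CPM. All knockout libraries stood apart from all control ones, with a log2 fold change of 2.63 (SE 0.08; by edgeR, adjusted p = 1.17e-07). AKAP5, an anchor at the plasma membrane, rose from 3.38 ± 0.288 to 6.28 ± 0.403 CPM, 1.85-fold (adjusted p = 2.72e-04). AKAP12 (gravin), the most abundant per length, read 278.2, 243.5 and 188.7 CPM against 254.2, 212.4 and 183.7 CPM (adjusted p = 0.612). AKAP11 was at 173.5, 167.4 and 145.0 CPM and at 185.5, 168.9 and 153.8 CPM (adjusted p = 0.668). In both groups replicate 1 was the highest and replicate 3 the lowest library for AKAP12 and AKAP11, as for the centrosomal AKAP9 (82.6 to 133.4 CPM in control, 76.8 to 118.6 CPM in knockout) and AKAP13 (32.6 to 52.7 and 35.9 to 50.5 CPM). For these 4 genes the spread within a group exceeded the difference between group means. The mitochondrial AKAP1, and AKAP10, AKAP7 and the nuclear AKAP8, differed by at most 1.12-fold. AKAP8 was lower in all knockout libraries (53.5 ± 3.60 and 47.7 ± 3.03 CPM) but not called (edgeR adjusted p = 0.147). AKAP2 was counted at 0.985 ± 0.224 and 1.00 ± 0.0943 CPM. It lies wholly inside the annotated PALM2-AKAP2 fusion gene on the same strand (0.146 and 0.103 CPM). No source states how reads in exons shared by both were counted, so the level of AKAP2 may be understated.

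Of 5 tested cyclases, 1 rose, 1 fell and 3 did not pass (40.0% called, beside 28.0% of all tested genes). None changed by as much as 2-fold. The median absolute log2 fold change was 0.28, beside 0.21 for all tested genes. ADCY1, which calcium and calmodulin stimulate, fell from 7.62 ± 0.697 to 4.44 ± 0.471 CPM, with a log2 fold change of -0.78 (SE 0.11; adjusted p = 9.28e-04 by edgeR). ADCY7 rose from 7.82 ± 0.620 to 9.81 ± 0.795 CPM (adjusted p = 0.0344), a call lost without control replicate 2, control replicate 3, knockout replicate 1 or knockout replicate 2 (0.0874, 0.0747, 0.0909 and 0.111). ADCY3, the most abundant per length, read 40.1, 41.1 and 34.6 CPM against 37.8, 37.5 and 32.5 CPM, with overlap (adjusted p = 0.470). ADCY6, which calcium inhibits, was at 31.5, 30.7 and 27.8 CPM and at 27.4, 24.9 and 22.9 CPM, without overlap and just outside the threshold (adjusted p = 0.0535; 0.0236 without control replicate 3 and 0.0326 without knockout replicate 1). ADCY9, which responds poorly to forskolin, was at 21.9 ± 3.57 and 18.1 ± 2.32 CPM (adjusted p = 0.179; 0.0228 without control replicate 3). Summed over the 10 cyclases the level was 13.5 ± 1.26 and 12.1 ± 1.06 RPKM. No source states whether counting used strand, so reads of PDE4D, PDE5A, PRKAR1A, AKAP5 and ADCY7, called genes that overlap a tested gene on the opposite strand, may not be fully separated. PDE3A, PDE4D and PDE6A overlap a tested gene on the same strand, which a strand setting does not separate. The longer PDE11A entry and AKAP2 overlap untested entries on the same strand, the shorter PDE11A entry and PALM2-AKAP2, with the same limit.

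Upstream of the cyclases, receptors and G proteins were examined as lists written from textbook knowledge. Of 39 genes for receptors coupled to stimulatory G proteins, 15 were tested, 6 rose and 2 fell. PTGER2, GIPR and PTH1R did not reach the filter in both groups; of the other 12, 5 rose and 2 fell (median log2 fold change 0.47). The prostaglandin E2 receptors PTGER4 and PTGER2 rose, PTGER4 from 1.02 ± 0.175 to 5.36 ± 0.658 CPM (5.24-fold, edgeR adjusted p = 8.91e-06) and PTGER2, tested only through its knockout level, from 0.0456 ± 0.0201 to 0.777 ± 0.102 CPM, and the receptor GLP2R rose from 1.13 ± 0.283 to 5.43 ± 0.401 CPM. The serotonin receptor HTR7 fell from 28.5 ± 1.09 to 22.1 ± 1.11 CPM. GPR3, a receptor active without ligand, fell from 6.20 ± 0.343 to 4.76 ± 0.576 CPM (adjusted p = 0.0334), a call lost without any 1 library other than knockout replicate 1 (0.0620 to 0.0889). MC1R was low, at 2.10 ± 0.211 and 1.97 ± 0.302 CPM (adjusted p = 0.718). Of 9 tested G protein subunits and their chaperones, 1 rose and 3 fell (median 0.04). GNAS, which encodes the stimulatory subunit and is a complex locus with several transcripts, fell 2.05-fold from 1458 ± 81.4 to 709.7 ± 37.9 CPM (edgeR adjusted p = 9.13e-06). Of the inhibitory subunits GNAI1 rose from 13.7 ± 0.715 to 27.8 ± 0.744 CPM, whereas GNAO1 fell from 11.7 ± 1.94 to 4.34 ± 0.299 CPM and GNAZ from 0.839 ± 0.181 to 0.272 ± 0.0519 CPM. The far more abundant GNAI2 (177.1 ± 4.12 and 186.4 ± 10.3 CPM, edgeR adjusted p = 0.447) did not pass. Nor did GNAI3 (257.9 ± 19.0 and 272.2 ± 18.6 CPM, edgeR adjusted p = 0.525).

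The list of other cAMP effectors and PKA inhibitors was divided, with 4 of 15 tested higher and 5 lower (median -0.07). The genes of the inhibitor peptides PKIB and PKIA, which block free catalytic subunits, rose: PKIB from 1.03 ± 0.236 to 21.2 ± 2.19 CPM (20.7-fold, edgeR adjusted p = 3.27e-07) and PKIA from 8.43 ± 0.872 to 31.9 ± 2.31 CPM (3.78-fold, adjusted p = 1.71e-06). The related PKIG, in control the most abundant of the 3 by CPM, fell from 17.8 ± 2.15 to 13.6 ± 1.25 CPM (adjusted p = 0.0263), a call lost without control replicate 2, knockout replicate 1 or knockout replicate 2 (0.0690, 0.0761 and 0.0774). The membrane proteins BVES and POPDC3, of a family that binds cAMP, fell from 18.2 ± 1.17 to 6.23 ± 0.228 CPM and from 38.8 ± 2.79 to 22.3 ± 0.369 CPM. The cAMP-gated channel gene HCN2 rose from 0.655 ± 0.252 to 1.44 ± 0.0778 CPM.

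Downstream, of 13 CREB factors and coactivators 2 rose, 1 fell and 10 did not pass (median -0.08). CREB5 rose from 2.53 ± 0.231 to 6.88 ± 0.608 CPM (adjusted p = 2.38e-05). The coactivator CRTC3 fell from 20.99 ± 2.20 to 16.8 ± 1.47 CPM (adjusted p = 0.0408), a call lost without control replicate 1, control replicate 2, knockout replicate 2 or knockout replicate 3 (0.123 to 0.149), and the kinase SIK1 rose from 1.01 ± 0.241 to 1.63 ± 0.122 CPM (adjusted p = 0.0289), a call lost without any 1 library other than control replicate 1 (0.0601 to 0.113). Immediate targets of cAMP and CREB went both ways, 8 of 15 tested higher and 5 lower (median 0.30). The orphan receptors NR4A1 and NR4A2 fell, NR4A1 from 24.6 ± 1.96 to 3.26 ± 0.115 CPM (7.53-fold, edgeR adjusted p = 1.48e-07) and NR4A2 from 7.04 ± 0.766 to 1.90 ± 0.269 CPM, and the AP-1 gene FOSB fell from 6.78 ± 0.710 to 3.10 ± 0.226 CPM. The related NR4A3 was not called (1.57 ± 0.501 and 1.76 ± 0.265 CPM, edgeR adjusted p = 0.680). The growth factors BDNF (6.61 ± 0.302 to 40.8 ± 0.151 CPM) and AREG (5.996 ± 0.219 to 28.6 ± 3.03 CPM) rose, as did MITF (2.41-fold). On the cGMP side, 5 of 14 genes were tested, 2 rose and 1 fell; both that rose, PRKG2 and NOS1, were tested only through their knockout level, and of the other 3 none rose and 1 fell. The kinase PRKG2 rose from 0.0598 ± 0.0325 to 1.61 ± 0.306 CPM, PRKG1 fell from 2.49 ± 0.421 to 0.729 ± 0.298 CPM, and the nitric oxide synthase NOS1 rose from 1 read in all control libraries to 2.63, 2.13 and 1.92 CPM in the knockout ones. Each pathway list is to be read beside the 28.0% of all tested genes that were called.

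**Figure D5:**
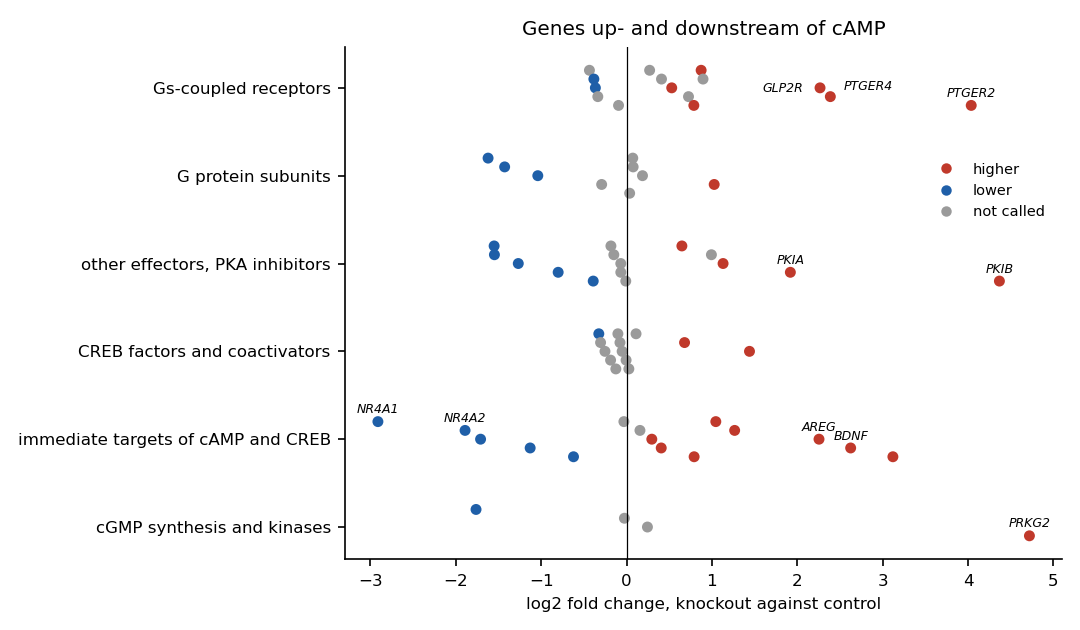
Log2 fold change of the tested genes of 6 lists around cAMP and cGMP (red higher, blue lower, grey not past the threshold; NOS1, with 1 control read, is left out). PKIB and PTGER2 stand furthest to the right of the cAMP lists and NR4A1 furthest to the left.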

How the data were processed

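Whole-number, unnormalized gene counts were deposited by the authors, with a column per library. HISAT2, HTSeq and genome build hg38 are named per the submitters' processing notes; for versions, annotation and strand setting: not given in the sources used here. The labels' protocols name a stranded mRNA kit. Gene types, coordinates and exonic lengths came from GENCODE 29 (GRCh38). All libraries entered 1 fit in edgeR 4.0.16 (R 4.3.3): filterByExpr, TMM scaling, two-sided quasi-likelihood test without covariates, Benjamini-Hochberg adjustment over all 19263 genes, threshold 0.05. The fit was tested on simulated data. Alternatives used DESeq2 1.42.0, limma-voom (limma 3.58.1), other scalings and filters, the replicate number as a block, a test against a 2-fold change and leaving out each library. No replicate pair agreed within sampling noise. Tables used Python 3.11.15 with scipy 1.17.1.

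Values in every library are given for members past the threshold with a 2-fold or larger change and at least 1 CPM in a group. They are also given for PKA subunits and for the 2 most abundant members of each class per length. Of each pathway list up to 3 genes per direction by smallest p are named, and MC1R, PKIG, GNAI2, GNAI3 and NR4A3 outside that rule. Members and lists were chosen with earlier results of these data known. Symbols with further letters after the number (AKAP8L, AKAP17A, PDE4DIP) and PDE12 were outside the rule. Some list genes that the naming rule would name are not reported here.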

Additional observations from a re-analysis of the deposited data

How the results depend on the processing

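No called member changed sign under any alternative; of the members not called, AKAP2, AKAP11, AKAP12 and AKAP13 did when single libraries were left out. Of the 21 called members, 18 were also called in each of 13 alternatives that tested them; PRKACA, ADCY7 and PDE6A were not, and the test against a 2-fold change is not among these 13. That test called 6 members higher and 2 lower, and 659 genes higher and 573 lower among all genes. With the replicate number as a block, 13 members were higher and 19 lower, and 4637 genes higher and 5176 lower among all genes. The labels do not say whether libraries of the same number share more than a number. Their deviations from the group means correlated at 0.279, -0.00459 and 0.288 for replicates 1, 2 and 3. Control replicate 3 with knockout replicate 1 gave -0.307, and control replicate 1 with knockout replicate 3 gave -0.26. Control replicate 2 correlated best with knockout replicate 1 (0.0526). Deviations from a group mean cancel out within the group, so these values depend on each other and cannot show pairing by number. The main test, without a block, leaves any such shared part in its error. Leaving out single libraries gave 9 to 10 members higher and 9 to 13 lower, and 1986 to 2935 genes higher and 1794 to 2958 lower among all genes, with 1794 without knockout replicate 2. By raw reads in place of reads per length the PRKAR2B share differed by -3.67 percentage points, against -5.34 as reported. With at least 1 CPM in 3 libraries 36 members were tested. Gene counts sum alternative promoters and isoforms, and the members under about 1 CPM rest on few reads.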

Other observations

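SLFN12, the partner that certain PDE3A-binding drugs glue to PDE3A to kill tumour cells, was looked up after the PDE3A values were seen. SLFN12 averaged 25.1 ± 0.658 CPM in the control group and 25.3 ± 0.618 CPM in the knockout group and was not called (edgeR adjusted p = 0.949), beside the 12.2-fold lower PDE3A. Of genes with like names outside the rule, also taken after the fact, PDE12, a phosphodiesterase that acts on RNA ends, rose from 132.3 ± 0.214 to 149.3 ± 3.96 CPM (edgeR adjusted p = 0.0417). AKAP8L (27.7 ± 1.95 and 28.7 ± 1.42 CPM), AKAP17A (23.7 ± 2.53 and 21.2 ± 1.46 CPM) and PDE4DIP (32.1 ± 2.53 and 34.2 ± 2.52 CPM) did not pass.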
